A study of Mus musculus with 3 samples.

Results

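The 9 genes Nphs1, Wt1, Podxl, Synpo, Ptpro, Thsd7a, Cd2ap, Magi2 and Robo2, which are known from the podocyte and its slit diaphragm, were followed through 3 single-cell libraries of mouse kidney. They were taken by symbol from the 33696 genes of the deposited feature lists, where each symbol occurs 1 time. All 3 libraries came from kidneys of male mice and were made with the MobiCube 3′ kit. The young library came from mice of 3 to 4 months labelled as controls, the aged library from mice of 20 months given vehicle, and the aged D+Q library from mice of 20 months given D+Q. D+Q is the labels' abbreviation for a treatment that the series title calls senolytic, that is, directed at senescent cells. For the strain, the number of animals per library, the dose and its schedule, nothing is given in the sources used here.

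Podocytes are epithelial cells of the glomerulus whose interlocking foot processes wrap the filtering capillaries. Neighbouring foot processes are bridged by the slit diaphragm, a junction built on nephrin (Nphs1), tied by adaptors such as Cd2ap and Magi2 to the actin cytoskeleton, where synaptopodin (Synpo) acts. The podocyte surface carries podocalyxin (Podxl), the receptor phosphatase Ptpro, Thsd7a, which is an antigen in some patients with membranous nephropathy, and Robo2, a receptor for Slit ligands. Wt1 is a transcription factor required for podocyte development and upkeep.

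With 1 library per group, no difference between libraries had a replicate check and no test was made. Age or treatment cannot be told apart from the library. Levels are given as CPM, the UMI counts of a gene scaled to a common total of UMIs of the same cells. All intervals are 95% intervals and cover counting error only. The cells left by filtering numbered 7734 (young), 5701 (aged) and 7424 (aged D+Q). Their medians were 2388, 1875 and 2285 UMIs. Fewer podocytes and less RNA per podocyte cannot be told apart in a level over all cells. Each pair of libraries shared 28 to 38 cell barcodes. The levels are not scaled by transcript length, so levels of different genes are not compared.

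In all cells together, each of the 9 genes differed by less than 1.5-fold between libraries. Nphs1 stood at 4.24 CPM (young), 5.79 CPM (aged) and 4.01 CPM (aged D+Q), from 92, 76 and 77 counts. Magi2 stood at 741 CPM (young), 857 CPM (aged) and 782 CPM (aged D+Q). In aged against young, 0 of 9 genes differed by 1.5-fold or more, beside 7.01% of all tested genes that were at least that much higher and 8.1% that were lower. It was again 0 of 9 in aged D+Q against aged, beside 4.59% higher and 6.25% lower. It was 0 of 9 too in aged D+Q against young, which shares its libraries with both, beside 4.21% and 7.45%. The largest difference was that of Nphs1 in the second comparison, with a log2 ratio of -0.53 (-1.01 to -0.053). Robo2 gave -0.37 (-0.47 to -0.27) in aged against young and 0.34 (0.23 to 0.44) in aged D+Q against aged.

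The podocyte gate first designed for these cells did not isolate podocytes. It took cells with a UMI of at least 3 of 10 podocyte genes that are not among the 9, with Cdkn1c, Clic3, Col4a3, Col4a4, Plce1, Ildr2, Tcf21, Rhpn1 and Ddn among them. It took 966 cells of the young library, 696 of the aged and 938 of the aged D+Q, 12.5% of all cells, and 1575 of these 2600 cells were in proximal tubule-like clusters. Col4a3 had a UMI in 61.5% to 67.7% of the cells of a library and Col4a4 in 53.0% to 59.3%. The median of the 9 genes in this gate was 2.38-fold (young), 2.59-fold (aged) and 2.82-fold (aged D+Q) that of other cells, from a low of 1.09-fold to a high of 32.1-fold for single genes. Inside the gate, Nphs1 was the 1 gene of 9 at least 1.5-fold higher in aged against young, with a log2 ratio of 0.61 (0.066 to 1.15), beside 7.03% of tested genes, and 0 were lower, beside 8.46%. None of the 9 passed in aged D+Q against aged, beside 4.49% higher and 10.4% lower. There 1 gene, Wt1, was higher in aged D+Q against young, at 0.69 (0.10 to 1.30), beside 3.85%, and 0 were lower, beside 11.8%. Outside this gate 0 of 9 were higher in either comparison with the aged library, beside 7.42% and 5.25%. There Ptpro was lower in aged against young at -0.65 (-1.43 to 0.050), beside 8.27%, and Nphs1 in aged D+Q against aged at -1.47 (-2.77 to -0.32) from 10 against 19 counts, beside 5.74%. Between aged D+Q and young, Nphs1 was lower at -1.35 (-2.59 to -0.31) and Ptpro at -1.10 (-1.85 to -0.42), beside 6.71%, and Synpo was higher at 0.65 (0.26 to 1.05), beside 4.48%.

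Podocytes were therefore looked for in 2 further ways, both chosen after these values were seen. The first was a cluster. Of 24 clusters, cluster 16 carried the podocyte markers and was led by Ptpro, Nphs1, Nebl, Lingo2 and Thsd7a. It had 31 cells from the young library, 22 from the aged and 16 from the aged D+Q, which were 0.401% (0.273% to 0.569%), 0.386% (0.242% to 0.584%) and 0.216% (0.123% to 0.350%) of the cells kept. All 11 podocyte markers had counts in it in every library, but 5 of them are among the 9 genes. The 9 genes took part in the clustering, so their height in this podocyte-like cluster is a description.

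The second was a narrower gate of at least 3 of 8 genes, which dropped Col4a3, Col4a4 and Ildr2 and added 1 other podocyte gene. It was 1 of 9 replacement gates looked at, and it was picked with 2 things in view, namely the gates' overlap with cluster 16 and their share of cells with 4 or more of the 9 genes. It is thus not independent of the 9 genes, and the results of all 9 gates are given below. This narrow gate took 39 cells of the young library, 21 of the aged and 18 of the aged D+Q, 0.374% of all cells. Of these 78 cells, 42 were in the podocyte-like cluster and 28 in cluster 3, an unnamed cluster led by Dock2, Ptprc and Fyb that carried markers of several cell types. Median UMIs per gated cell were 5429 (young), 4225 (aged) and 2389.5 (aged D+Q).

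Nephrin was the gene most restricted to podocyte-like cells. This cluster was 0.331% of the cells and held 60.4% of the Nphs1 counts, or 42.4%, 67.1% and 75.3% by library in the same order. The Nphs1 level there was 395 CPM (young), 1014 CPM (aged) and 1580.5 CPM (aged D+Q), from 39, 51 and 58 counts. In cells outside both the cluster and the narrow gate it was 1.73 CPM (young), 1.70 CPM (aged) and 0.839 CPM (aged D+Q). Nphs1 took part in forming and naming the cluster, so its height there is a description. After cluster 16, the highest pooled level was 18.5 CPM in cluster 5, from 4 counts.

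Among the surface proteins, Ptpro was nearly as restricted and Podxl was not. The podocyte-like cluster held 53.5% of the Ptpro counts, and its level there was 679 CPM (young), 1193 CPM (aged) and 2534 CPM (aged D+Q). In the other cells Ptpro stood at 3.65 CPM (young), 2.39 CPM (aged) and 1.78 CPM (aged D+Q). Podxl, also known from endothelium, had 32.9% of its counts in endothelial-like cells, 28.8% in cluster 3 and 10.7% in podocyte-like cells. Its level was nonetheless highest in podocyte-like cells, at 872 CPM (young), 1272 CPM (aged) and 2807 CPM (aged D+Q). In endothelial-like cells it was 179 CPM (young), 149.9 CPM (aged) and 239 CPM (aged D+Q).

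Thsd7a was spread over 22.4% of counts in podocyte-like, 21.1% in cluster 3 and 19.6% in endothelial-like cells. It reached 1145 CPM (young), 2047 CPM (aged) and 5641 CPM (aged D+Q) in the podocyte-like cluster. The next highest pooled level was 366 CPM in cluster 5, led by Rspo3 and Ntng1. Robo2 was 1 of 2 genes that did not peak in podocyte-like cells. Its highest pooled level was 2337 CPM in cluster 4, led by Mgp and Fbln5, against 1675 CPM in the podocyte-like cluster. By library the order was not the same: Robo2 in the podocyte-like cluster was 963 CPM (young), 1173 CPM (aged) and 4278 CPM (aged D+Q), and in cluster 4 it was 2615 CPM (young), 1891 CPM (aged) and 2250.5 CPM (aged D+Q). Cluster 3 held 44.7% and cluster 4 36.9% of the Robo2 counts.

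The adaptors were counted largely in the tubule. Proximal tubule-like cells, 66.2% of all cells, held 57.0% of the Magi2 counts and 49.3% of the Cd2ap counts, both below their share of the cells. Magi2 was still far higher per UMI in the podocyte-like cluster, at 13229 CPM (young), 20254 CPM (aged) and 37849 CPM (aged D+Q), against 704 CPM (young), 792 CPM (aged) and 747 CPM (aged D+Q) in proximal tubule-like cells. After the podocyte-like cluster, the highest pooled Magi2 level of a single cluster was 2233 CPM, in a proximal tubule-like cluster. Cd2ap was the other gene that did not peak in podocyte-like cells. It reached 610.1 CPM in the urothelium-like cluster 14, 483 CPM in cluster 20 and 447 CPM in the podocyte-like cluster. The pooled intervals of these were 551 to 674, 406 to 569.9 and 356 to 554, so neighbours in that order overlapped. These are pooled values, and the order was not the same in each library. Cluster 14 was at 674 CPM (young), 678 CPM (aged) and 526 CPM (aged D+Q). Cluster 20 was at 410.0 CPM (young), 458 CPM (aged) and 689.9 CPM (aged D+Q), the highest of the 3 clusters in aged D+Q. The podocyte-like cluster, at 324 CPM (young), 576 CPM (aged) and 599 CPM (aged D+Q), was above cluster 20 in aged. Against the cells outside cluster and gate, Cd2ap in the podocyte-like cluster stood at 2.31-fold (young), 3.80-fold (aged) and 4.28-fold (aged D+Q), the smallest ratio of the 9 genes in each library.

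Synpo, the actin-linked member, had 27.1% of its counts in cluster 3, 22.7% in podocyte-like and 22.1% in endothelial-like cells. Its level in the podocyte-like cluster was 436 CPM (young), 656 CPM (aged) and 1117 CPM (aged D+Q), and in endothelial-like cells 16.8 CPM (young), 27.5 CPM (aged) and 45.8 CPM (aged D+Q). Wt1 had most of its counts, 51.5%, in cluster 12, an unnamed cluster led by genes that include Slc34a2, Grik1 and Klhl14 with a median mitochondrial share of 15.4% to 17.7% by library. The Wt1 level there was 99.8 CPM (young), 109 CPM (aged) and 109 CPM (aged D+Q). In the podocyte-like cluster it was 203 CPM (young), 338 CPM (aged) and 899 CPM (aged D+Q), from 20, 17 and 33 counts. In all, 7 of the 9 genes had their highest pooled level in the podocyte-like cluster, also at a clustering resolution of 2.

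**Figure D1:**
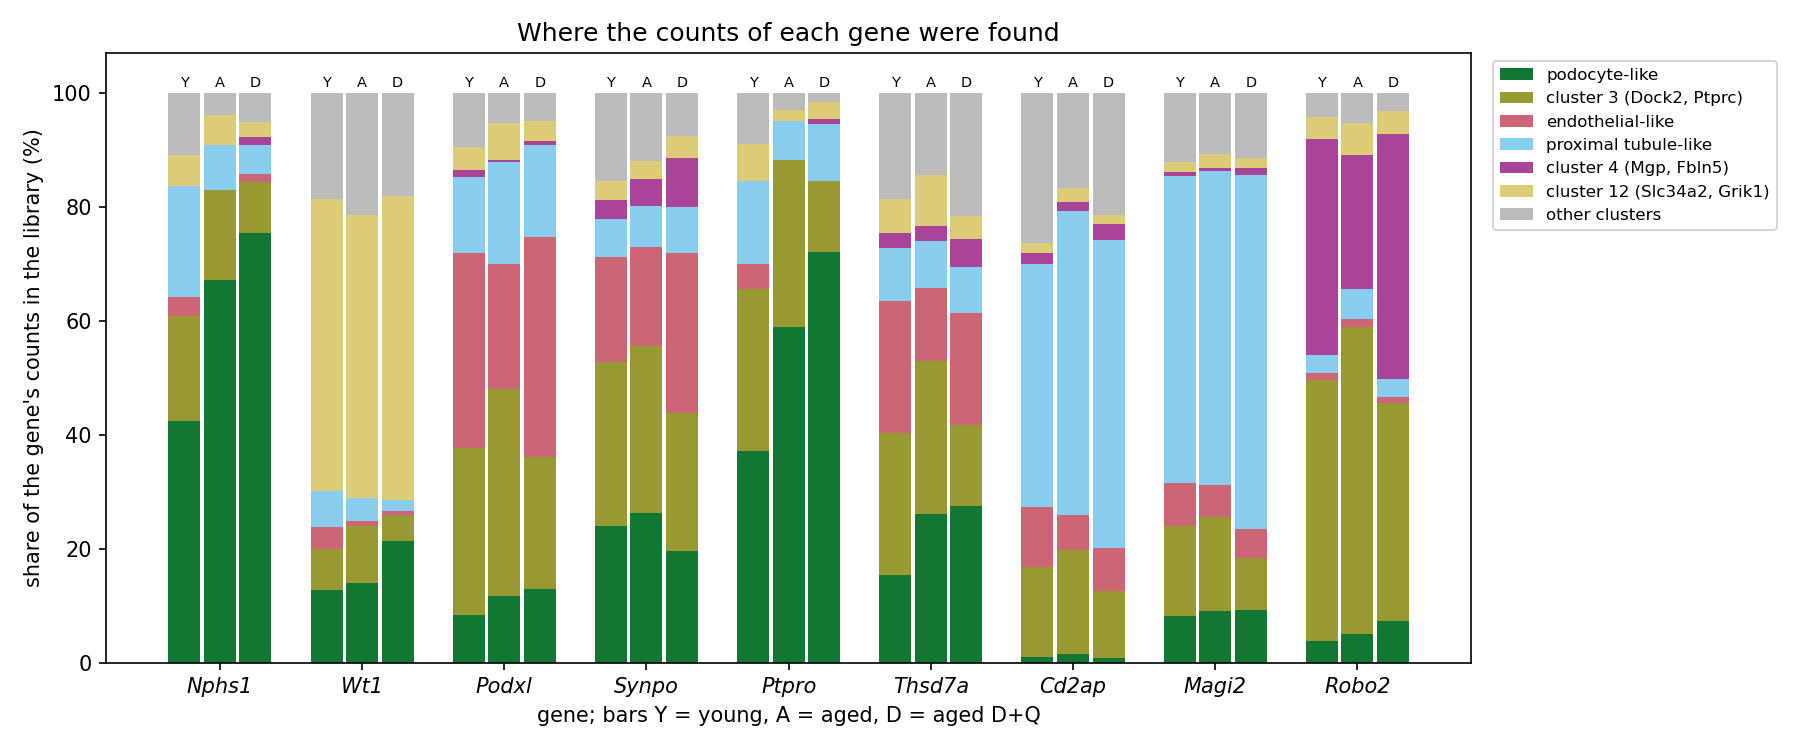
Share of each gene's counts by cell cluster, as a percentage of the gene's counts in the library, with 1 bar per library. Green segments, podocyte-like cells, are large for Nphs1 and Ptpro and under 2% for Cd2ap in each library.

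**Figure D2:**
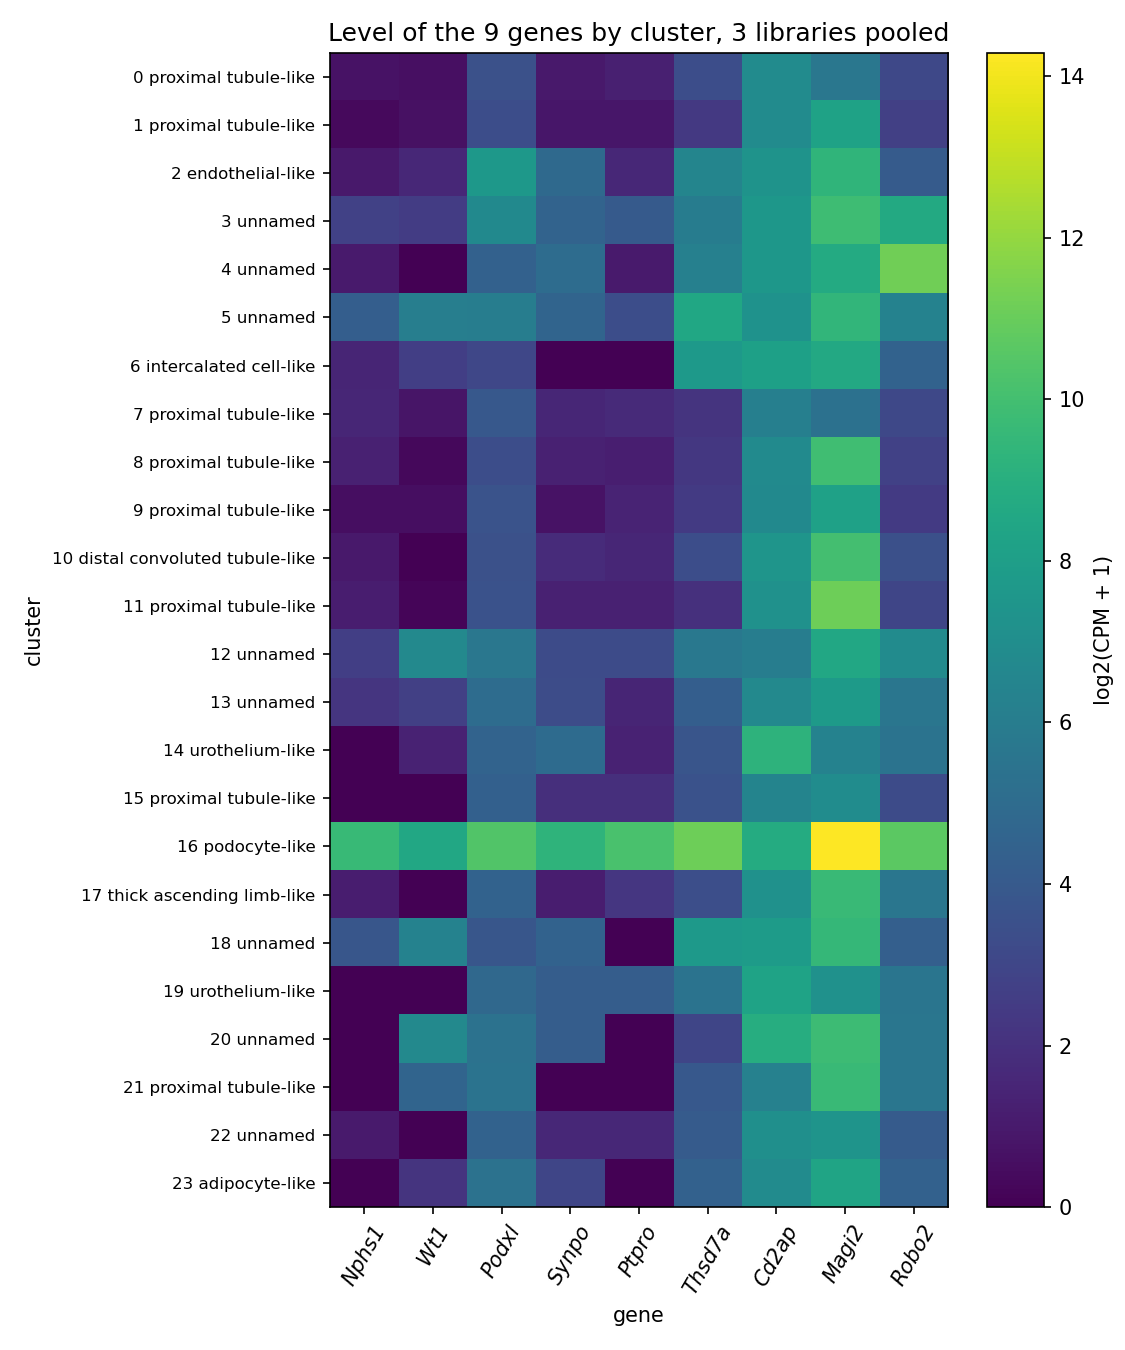
Level of the 9 genes in the 24 clusters, 3 libraries pooled, as log2(CPM + 1) in colour. Cluster 16, podocyte-like, has the highest value in 7 of 9 columns; Robo2 peaks in cluster 4 and Cd2ap in cluster 14.

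Promoters are shown for the 2 genes most restricted to podocyte-like cells, Nphs1 and Ptpro, and for the 2 adaptors counted largely in the tubule, Magi2 and Cd2ap. The RefSeq promoter table, on GRCm38.p6, holds 300 bases around a gene's start and matched 6 of the 9 genes with 9 promoters. Wt1, Podxl and Synpo are named only. The positions are those of that table: Nphs1 at chr7:30459808-30460107 on the plus strand, Ptpro at chr6:137252049-137252348 on the plus strand, the first Magi2 promoter at chr5:19226796-19227095 on the plus strand and Cd2ap at chr17:42876375-42876674 on the minus strand. Capitals mark CpG dinucleotides, a feature chosen after the sequences were viewed.
Nphs1: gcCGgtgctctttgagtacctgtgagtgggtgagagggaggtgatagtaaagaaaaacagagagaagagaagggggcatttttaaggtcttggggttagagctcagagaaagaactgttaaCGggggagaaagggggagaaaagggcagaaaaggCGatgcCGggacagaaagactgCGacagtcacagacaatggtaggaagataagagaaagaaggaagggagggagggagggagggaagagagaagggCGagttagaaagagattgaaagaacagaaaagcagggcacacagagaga
Ptpro: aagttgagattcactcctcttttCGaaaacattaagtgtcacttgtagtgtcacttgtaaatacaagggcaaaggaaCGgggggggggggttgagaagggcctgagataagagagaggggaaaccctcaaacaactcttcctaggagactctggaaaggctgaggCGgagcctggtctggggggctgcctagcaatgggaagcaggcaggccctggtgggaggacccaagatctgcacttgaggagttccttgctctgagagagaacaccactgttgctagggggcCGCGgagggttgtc
Magi2: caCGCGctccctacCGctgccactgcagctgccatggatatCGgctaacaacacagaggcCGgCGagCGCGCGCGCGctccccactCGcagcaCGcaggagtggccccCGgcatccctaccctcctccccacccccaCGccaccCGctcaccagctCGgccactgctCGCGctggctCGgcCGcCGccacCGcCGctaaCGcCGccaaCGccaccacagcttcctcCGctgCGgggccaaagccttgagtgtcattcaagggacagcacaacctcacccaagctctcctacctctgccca
Cd2ap: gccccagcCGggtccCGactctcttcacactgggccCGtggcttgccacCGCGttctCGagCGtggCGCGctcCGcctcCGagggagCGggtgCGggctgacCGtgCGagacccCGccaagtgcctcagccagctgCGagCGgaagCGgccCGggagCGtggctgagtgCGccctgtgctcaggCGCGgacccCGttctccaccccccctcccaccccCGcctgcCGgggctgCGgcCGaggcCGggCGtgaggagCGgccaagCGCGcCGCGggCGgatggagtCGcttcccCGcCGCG
The Nphs1 promoter holds 6 CpG and the Ptpro promoter 5, against 29 for Magi2 and 41 for Cd2ap, and the median of all 32851 promoters is 7. The second Magi2 promoter holds 4, so the 2 starts of that gene differ. Of the matched genes not shown, the Thsd7a promoter holds 19 and the Robo2 promoters 9, 5 and 17. The 4 genes shown therefore do not stand for the matched genes as a set. In all, 7 motifs were searched on both strands, and GTGGGAGT contains GTGGGAG. Among the 6 matched genes GCGTGGG was found in 2, GTGGGAG in 3, GTGGGAGT in 0, GCGGGGG in 2, TAATTA in 1, CAGCTG in 4 and GGGAGG in 6. The shares of all promoters with them were 5.04%, 9.73%, 1.59%, 10.8%, 5.29%, 16.3% and 42.4%. Those shares are per promoter, while a gene was counted with a match in any of its promoters. The 6 genes have 9 promoters, so the units differ and the counts cannot be set against the shares directly. The motif hits are matches of letters and with 6 genes they are given as a description.

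Most podocyte-like cells carried several of the 9 genes at once. The cluster was formed partly on these genes and named partly from them, so this is a description. The median number of the 9 genes with a UMI in a podocyte-like cell was 7 (young), 7 (aged) and 8 (aged D+Q), and 1 in proximal tubule-like cells of each library. After thinning each cell to 1000 UMIs the medians were 4, 4.5 and 7 in podocyte-like and 0 in proximal tubule-like cells. Nphs1 had a UMI in 18 of 31, 17 of 22 and 15 of 16 podocyte-like cells. Thinned, its shares were 32.3% (16.7 to 51.4), 59.1% (36.4 to 79.3), 75% (47.6 to 92.7). In proximal tubule-like cells, taken as the background of free RNA, the thinned Nphs1 shares were 0.165% (0.0710 to 0.324), 0.0514% (0.00622 to 0.186), 0.0395% (0.00479 to 0.143). Median depths were 2486, 1856 and 2330 UMIs in podocyte-like and 2358, 1800 and 2301.5 in proximal tubule-like cells.

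Thinned shares for Wt1 in podocyte-like cells were 22.6% (9.59 to 41.1), 27.3% (10.7 to 50.2), 87.5% (61.7 to 98.4). For Robo2 they were 58.1% (39.1 to 75.5), 59.1% (36.4 to 79.3), 100% (79.4 to 100). Cells of 1 library are not replicates of its group, and the cluster was formed partly on these genes' counts. For Cd2ap the shares were 32.3% (16.7 to 51.4), 40.9% (20.7 to 63.6), 37.5% (15.2 to 64.6), against 9.85%, 13.0% and 10.4% in proximal tubule-like cells. In proximal tubule-like cells the thinned shares were 0.103%, 0.0514% and 0.0198% for Wt1 and 0.658%, 0.797% and 0.652% for Robo2. Without thinning, the podocyte-like shares were 41.9%, 50% and 87.5% for Wt1, 77.4%, 72.7% and 100% for Robo2 and 61.3%, 68.2% and 75% for Cd2ap. Cells with 5 or more of the 9 genes, without thinning, numbered 194, of which 60 were podocyte-like and 114 were in cluster 3, whose cells were deeper, with medians of 3141.5 to 3609.5 UMIs. Thinned to 1000 UMIs, cells with 5 or more of the genes numbered 12, 11 and 16 in the podocyte-like cluster, in the order young, aged, aged D+Q, and 0, 0 and 1 outside the cluster and the narrow gate. Both the cluster and the gate were chosen partly on these genes, so this contrast was built in by the choice of cells.

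In aged against young, the outcome depended on how the cells were chosen. In the podocyte-like cluster, 7 of the 9 genes were at least 1.5-fold higher in aged, beside 18.2% of all tested genes, and 0 were lower, beside 13.1%. Nephrin had the largest log2 ratio, 1.35 (0.73 to 1.998). Those of the surface genes were 0.81 (0.28 to 1.34) for Ptpro, 0.84 (0.44 to 1.24) for Thsd7a, 0.55 (0.055 to 1.03) for Podxl and 0.29 (-0.21 to 0.77) for Robo2. The remaining ratios were 0.83 (0.053 to 1.60) for Cd2ap, 0.61 (0.49 to 0.73) for Magi2, 0.59 (-0.11 to 1.28) for Synpo and 0.74 (-0.29 to 1.74) for Wt1. These intervals cover counting error only, and the cluster was formed partly on these genes' counts.

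In the narrow gate 0 of 9 were higher and 0 lower, each beside 13.0% of tested genes, and all 9 intervals included 0. There Nphs1 stood at 173 CPM (young), 221 CPM (aged) and 462 CPM (aged D+Q) and Magi2 at 5491 CPM (young), 5451 CPM (aged) and 11884 CPM (aged D+Q). Over the 9 replacement gates the count of higher genes ran from 0 to 8 and that of lower genes from 0 to 4. Leaving the cells of cluster 3 out of the narrow gate gave 9 of 9 higher, with 24 young and 11 aged cells. For this choice and for the other replacement gates, the share of all tested genes is not given here. No direction is therefore given for the 9 genes between the young and aged libraries.

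In aged D+Q against aged, 8 of the 9 genes were at least 1.5-fold higher in the podocyte-like cluster, beside 24.0% of tested genes, and 8 in the narrow gate, beside 16.4%. None was lower in either, beside 35.0% and 17.8%. The exception in both was Cd2ap, with log2 ratios of 0.064 (-0.81 to 0.91) and 0.16 (-0.52 to 0.84). In the cluster the largest were Robo2 at 1.86 (1.43 to 2.32), Thsd7a at 1.46 (1.11 to 1.82) and Wt1 at 1.39 (0.53 to 2.35). The remaining ratios there were 1.14 (0.68 to 1.61) for Podxl, 1.08 (0.60 to 1.58) for Ptpro, 0.90 (0.78 to 1.02) for Magi2, 0.76 (0.071 to 1.48) for Synpo and 0.64 (0.073 to 1.21) for Nphs1. Those of the narrow gate ran from 0.89 for Synpo to 1.80 for Thsd7a among the 8. In aged D+Q against young, which repeats these libraries, 9 of 9 were higher in the cluster, beside 26.4%, and 0 lower, beside 33.0%. A single aged cell held 23.7% of the Robo2 counts of its library in the cluster. In the aged D+Q library the largest such shares were 20.4% for Podxl, 19.4% for Ptpro and 19.3% for Thsd7a.

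The cells of the cluster were grouped partly on these genes' own counts. This difference did not hold under every way of choosing the cells. Over the 9 replacement gates the count of higher genes ran from 1 to 9, and the median log2 ratio of the 9 genes from -0.09 to 3.46. With at least 2 instead of 3 genes of the narrow gate it was 2 of 9 higher, and 6 of the 9 were below 0, among them Nphs1 at -0.20 and Ptpro at -0.15. With the gate applied to cells thinned to 1000 UMIs it was 4 of 9, from 3 aged and 10 aged D+Q cells, and Nphs1 stood at -0.30. In the gate first designed it was 0 of 9, and in all cells 0 of 9. The median of 3.46 came from a gate with 5 aged and 6 aged D+Q cells. For replacement gates other than the narrow one, and for changed settings of it, the share of all tested genes is not given here. Their counts therefore cannot be set against such a share.

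Other values of these cells are set beside this difference, and not all of them moved with it. The gated cells of aged D+Q were shallower than those of aged, with median UMIs of 2389.5 against 4225, and 14 of 18 against 10 of 21 of them lay in the podocyte-like cluster. In that cluster the summed level of the 11 podocyte markers, which include 5 of the 9 genes, was 5089, 7335 and 13870.0 CPM, in the order young, aged, aged D+Q. In the narrow gate it was 2531, 2909 and 4896 CPM, and that of 9 endothelial markers 1954, 1732 and 2091 CPM. In the cluster the summed level of 10 proximal tubule markers was 14131, 14053 and 12943 CPM, with all 10 above 0 in each library, and that of the endothelial markers 233, 318 and 299.7 CPM, with Cdh5 at 0. Of 5 thick ascending limb markers the sum was 2656, 4472 and 3106 CPM. Median mitochondrial shares were 5.74%, 4.45% and 6.67%. The part of depth, of cells of other types and of mitochondrial share in the result was not tested.

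**Figure D3:**
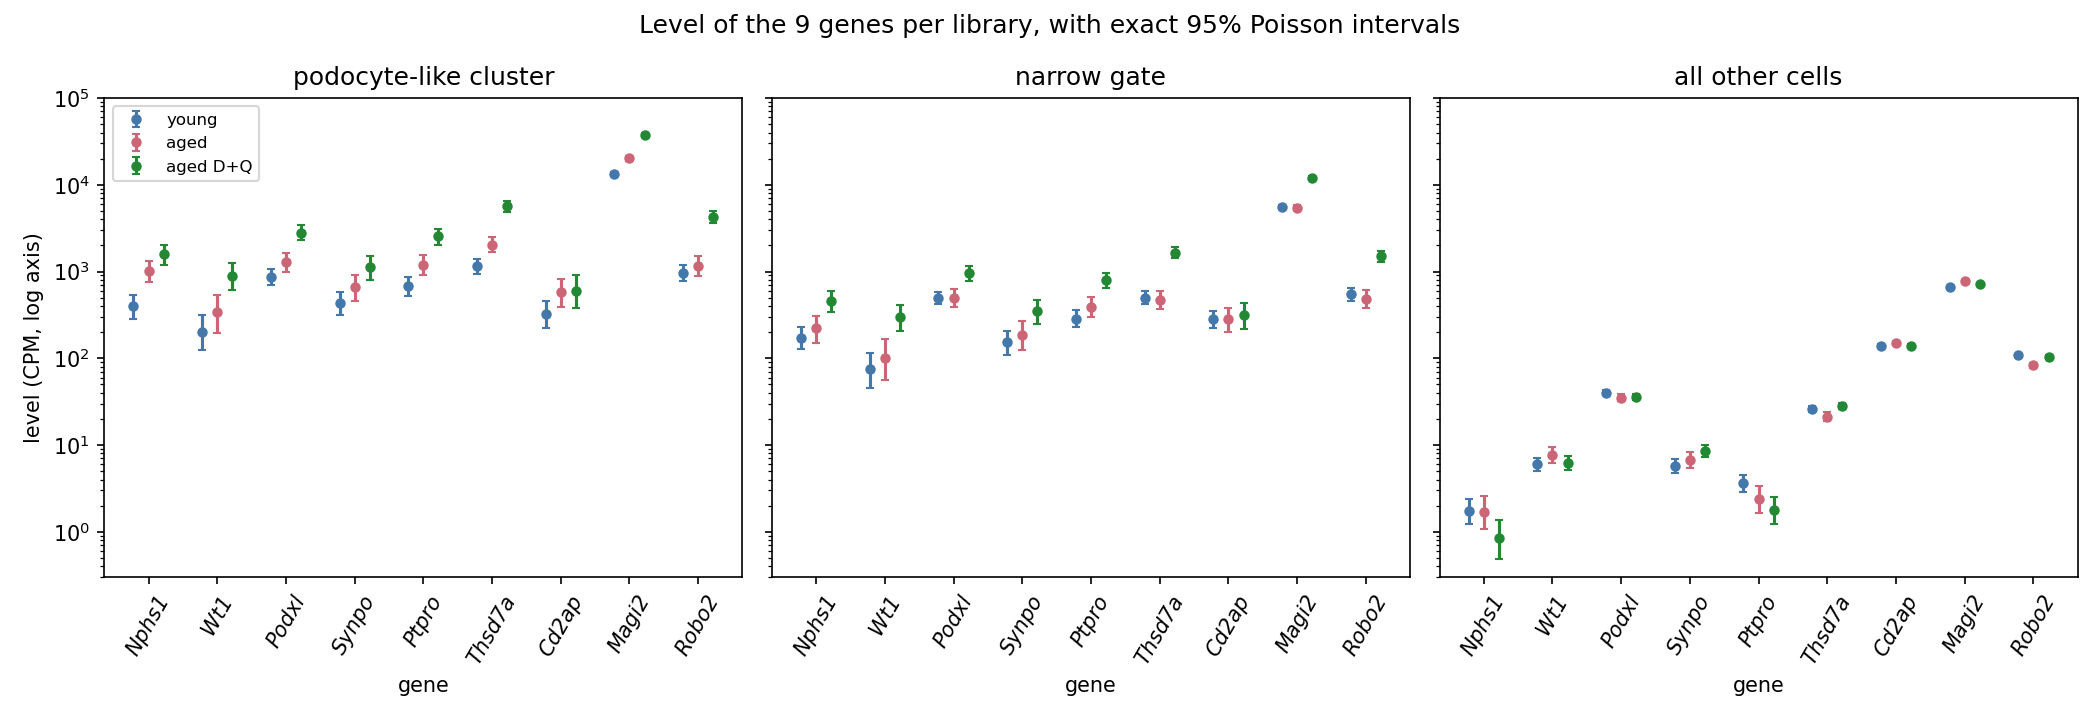
Level of each gene in CPM on a log axis, by library, in the podocyte-like cluster, the narrow gate and all other cells; points are library values and bars exact 95% Poisson intervals. In the podocyte-like cluster aged D+Q has the highest point for each of the 9 genes, with Cd2ap at 599 CPM beside 576 in aged.

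**Figure D4:**
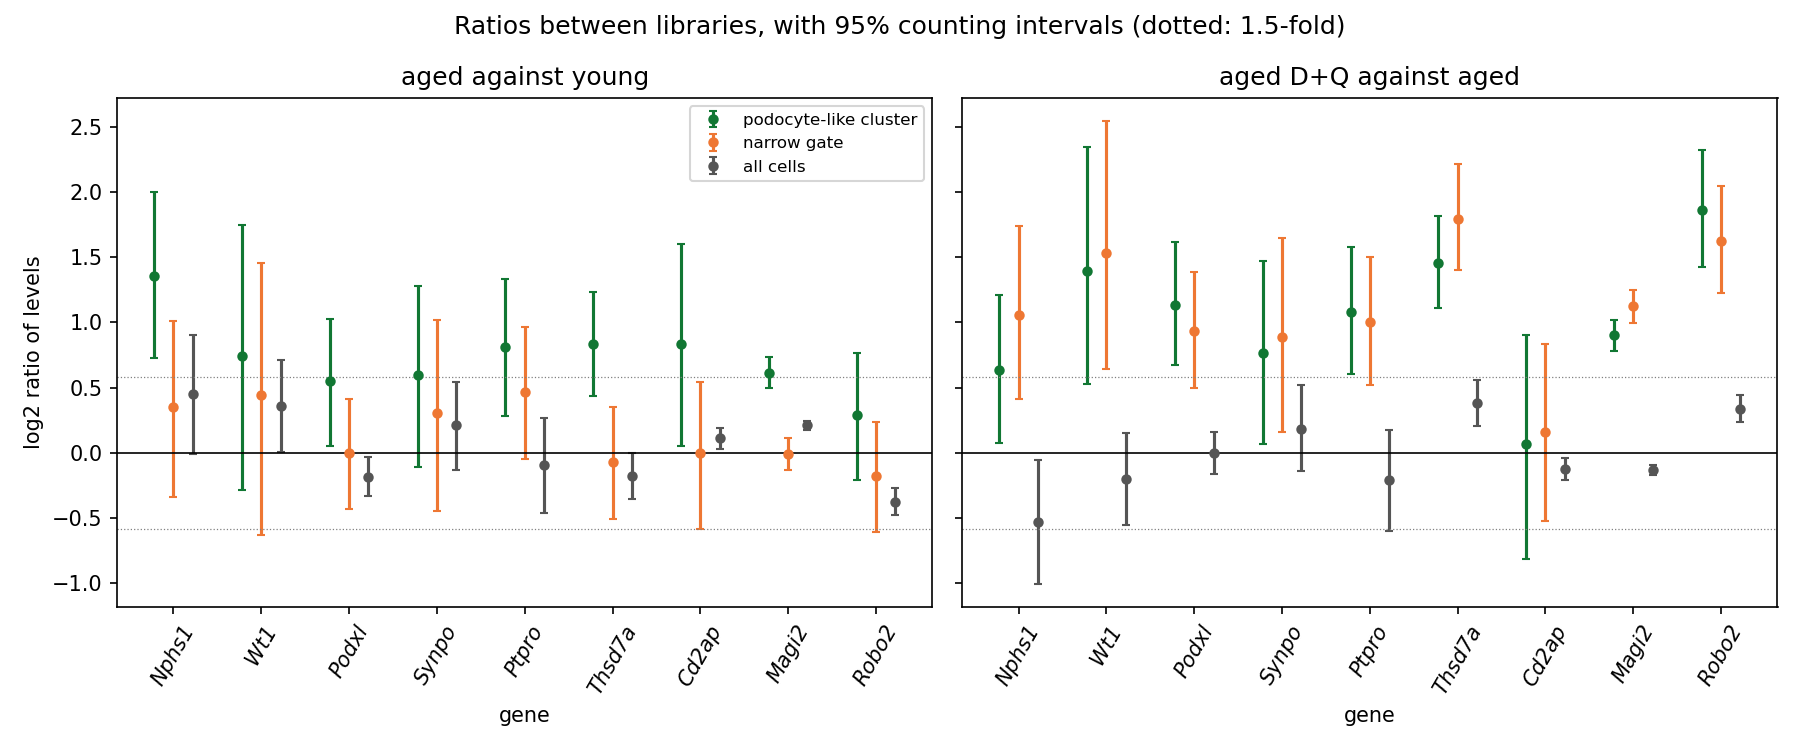
Log2 ratios of the 9 genes between libraries in 3 choices of cells, with 95% counting intervals; dotted lines mark 1.5-fold. In all cells, grey, no gene passes the dotted lines. In aged D+Q against aged 8 genes do so in the podocyte-like cluster and in the narrow gate, beside 24.0% and 16.4% of tested genes.

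**Figure D5:**
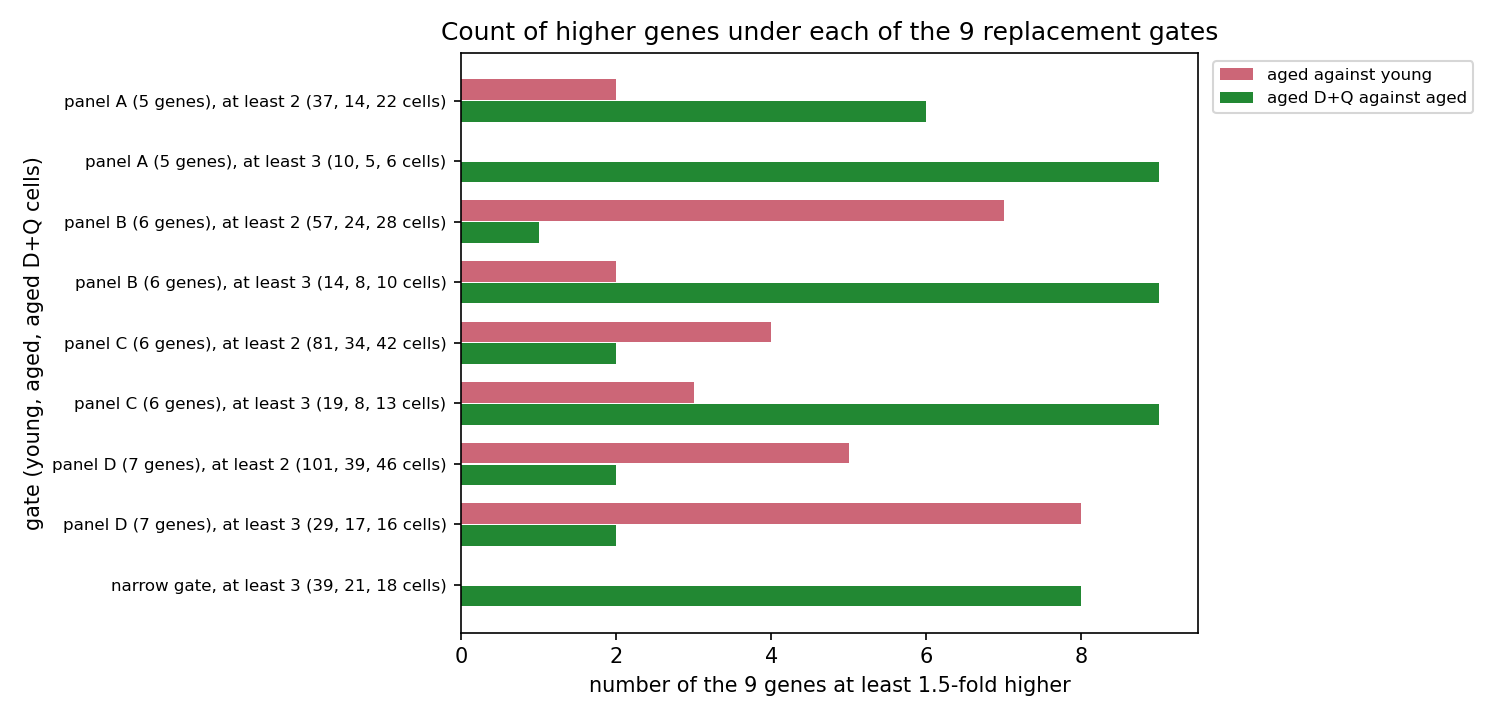
Number of the 9 genes at least 1.5-fold higher under each of the 9 replacement gates, which are the narrow gate and 4 smaller panels, A to D, at 2 minimum numbers of genes; the cells per library stand beside each gate. The count in aged D+Q against aged runs from 1 to 9 and that in aged against young from 0 to 8. Shares of all tested genes are not shown.

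Genes of the surrounding podocyte programme were read from 5 lists, slit diaphragm and adaptors, actin and foot process, basement membrane and adhesion, transcription factors, and secreted factors and receptors. In the podocyte-like cluster in aged D+Q against aged, 4 of 6 slit diaphragm genes with at least 30 counts were at least 1.5-fold higher, 6 of 7 actin genes, 2 of 4 basement membrane genes, 2 of 2 transcription factors and 2 of 3 secreted factors, beside 24.0% of all tested genes. The lists hold 15, 16, 11, 8 and 10 genes. The growth factor Fgf1 was lower, from 2 against 14 counts, beside 35.0% of tested genes. The medians were 0.96, 0.999, 0.76, 1.37 and 1.13, beside -0.11 over all tested genes and 1.08 over the 9 genes. In the narrow gate, 8, 9, 6, 4 and 7 genes of the lists were tested, of which 5, 6, 2, 1 and 3 were higher, beside 16.4%, and 1, 1, 0, 1 and 1 lower, beside 17.8%. The medians there were 1.02, 0.79, 0.28, -0.073 and 0.11, beside -0.019 over all tested genes. In aged against young the counts of higher genes in the cluster were 1, 2, 0, 0 and 0, beside 18.2%, and 1 slit diaphragm gene was lower, beside 13.1%. In the gate first designed, where 12, 14, 11, 7 and 10 genes of these lists were tested, 3 were higher and 3 lower in aged against young over all lists, beside 7.03% and 8.46% of tested genes. There 2 were higher and 3 lower in aged D+Q against aged, beside 4.49% and 10.4%.

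The levels of single list genes that follow are those of the podocyte-like cluster, in the order young, aged, aged D+Q. By role, Tjp1, a junction scaffold of the slit diaphragm list, stood at 294, 318 and 790.2 CPM. The actin-linked Nebl was at 547, 815 and 1635 CPM and Srgap1, which binds Robo receptors, at 598, 775 and 1635 CPM. The transcription factor Dach1 was at 1845, 2365 and 6567 CPM, and Vegfa, the growth factor podocytes supply to glomerular endothelium, at 578, 755 and 1662 CPM. Aged D+Q, with 16 cells in the cluster, was the highest library for each of these 5 genes. Of all tested genes there, 24.0% were at least 1.5-fold higher in aged D+Q than in aged. In the narrow gate the list medians of that comparison ran from -0.073 to 1.02. Pard3, a polarity protein, was at 203, 278 and 218 CPM and Magi1, a relative of Magi2, at 284, 159 and 163 CPM, without that order. Among the actin genes, Iqgap2 was at 385, 616 and 1362 CPM and Arhgap24, which restrains Rac, at 466, 656 and 1226 CPM. Of the adhesion genes, the laminin receptor Dag1 was at 395, 258 and 599 CPM, the integrin ligand Npnt at 203, 219 and 708 CPM, the collagen chain Col4a5 at 324, 338 and 409 CPM and the integrin subunit Itgb1 at 324, 239 and 299.7 CPM. Dag1 was lowest in the aged library, and for Itgb1 the 3 values lay within 1.5-fold. The semaphorin Sema3g was at 213, 298 and 817 CPM. Lmx1b, a transcription factor of podocytes, had 5, 4 and 8 counts, too few to compare.

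Outside the cluster and the narrow gate, Ptpro was lower in aged against young, with a log2 ratio of -0.59 (-1.26 to 0.00866), beside 8.25% of tested genes, and 0 were higher, beside 7.02%. Nphs1 was lower in aged D+Q against aged, at -1.01 (-2.04 to -0.023) from 16 against 22 counts, beside 6.18%, and 0 were higher, beside 4.65%. In aged D+Q against young, which repeats these libraries, 2 were lower, beside 7.27%, namely Nphs1 at -1.02 (-1.99 to -0.16) and Ptpro at -1.02 (-1.66 to -0.44), and 0 were higher, beside 4.3%. In endothelial-like cells 6 of the 9 genes had at least 30 counts. Of these 3 were at least 1.5-fold higher in aged D+Q against aged, beside 11.6% of tested genes, namely Podxl at 0.67 (0.37 to 0.99), Thsd7a at 0.84 (0.38 to 1.34) and Synpo at 0.72 (0.010 to 1.52). Synpo was also higher in aged against young, at 0.72 (-0.14 to 1.53), beside 10.0%. None was lower in either comparison, beside 9.83% and 10.5%. In proximal tubule-like cells 7 genes were tested and 0 were higher in either comparison, beside 7.48% and 5.2%. Ptpro was lower there in aged against young, at -1.17 (-2.69 to 0.00285) from 7 against 26 counts, beside 8.23%, and 0 were lower in aged D+Q against aged, beside 5.48%.

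Among the 10 genes most like the 9 over the 24 clusters, by Pearson's r with their mean log2(CPM + 1), were Nebl (0.903), Cdc14a (0.895), Lmx1b (0.866), Usp13, Sncaip, Sema3e, Tlr7, Ntng2 and Cdkn1c (0.844). Tlr7 had 32 counts in all and Lmx1b 47. Among the 9, r with that mean, of which each is a part, ran from 0.470 for Cd2ap to 0.875 for Nphs1. The clusters share libraries and free RNA, and r is a description.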

How the data were processed

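The authors deposited 1 matrix of UMI counts per gene and barcode for each library, not normalised, with totals of 24346733 (young, 8615 barcodes), 13944270 (aged, 6027) and 21058975 (aged D+Q, 8037). The submitters' processing notes name GRCm39 and mm10 without their roles. For the aligner and the way barcodes were picked, nothing is given in the sources used here. Per the labels' protocols, kidneys were digested with collagenase II, strained at 40 μm and freed of red blood cells.

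Barcodes over 50% mitochondrial counts were left out (385, 82 and 149). Scrublet's own threshold called 2, 0 and 1 doublets and was taken not to have worked, so the top scores, at an assumed rate of 0.8% per 1000 barcodes, were left out instead (496, 244 and 464). Cells were clustered together on 2000 variable genes, 30 components and 15 neighbours at a Leiden resolution of 1, without integration. Clusters were named from markers of 17 classes, and the naming thresholds, among them a limit of 0.6 on the second class relative to the best, were set after the scores were seen. Cell names are rebuilt and may differ from the study's.

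Counts were summed per library and set of cells and scaled by the set's total to CPM, with exact Poisson intervals. Log2 ratios used a prior of 0.5 counts, genes needed 30 counts over the libraries, and intervals are exact conditional binomial intervals. Shares have exact Clopper-Pearson intervals. A difference was counted from 1.5-fold. The ratio and interval were tested on simulated Poisson counts at whole-library totals. That test does not cover sets of few cells, where single cells can hold much of a gene's counts.

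The 9 genes, lists and markers were chosen with earlier results of these data known. The gate first designed took 12.5% of cells. The narrow gate replaced it as 1 of 9 gates looked at, with values of the 9 genes in view. Some genes of the gates and lists are not reported here by name. Named beside the 9 genes are up to 4 genes per list with most counts, the 10 most like the 9, and the 5 largest ratios each way whose interval excluded 1.5-fold, of which some are in the closing section. Alternatives were TMM scaling (edgeR 4.0.16, R 4.3.3), a mean over cells, a prior of 1, a 25% mitochondrial limit, no doublet removal, other gates and a resolution of 2. Tools were Python 3.11.15, scanpy 1.11.5, scipy 1.17.1, numpy 2.4.6 and pandas 2.3.3.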

Additional observations from a re-analysis of the deposited data

How the results depend on the processing

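No paired analysis was possible because each group has 1 library. For the same reason no library could be left out. The counts below for changed settings and other gates have no share of all tested genes beside them. In all cells, averaging over cells gave 1 gene higher in aged against young where sums gave 0. In the gate first designed, the count of genes higher in aged against young, 1, became 2 with a mean over cells, 0 with at least 2 panel genes, 2 with at least 4, 2 with gating on thinned cells, 7 in the podocyte-like cluster and 0 in the narrow gate. In aged D+Q against aged its 0 became 2 with at least 4 panel genes, 2 with gating on thinned cells, 8 in the cluster and 8 in the narrow gate. Its cells numbered 3743, 3026 and 3770 with at least 2 panel genes, 154, 100 and 119 with at least 4, 124, 151 and 155 with thinning, 31, 22 and 16 in the cluster and 39, 21 and 18 in the narrow gate, in young, aged and aged D+Q. The median log2 ratio of the 9 genes against other cells, in the same order, was 0.57, 0.62 and 0.24 with at least 2 panel genes, 2.25, 2.66 and 3.45 with at least 4, 2.13, 2.98 and 3.35 with thinning, 5.04, 5.44 and 6.998 in the cluster and 3.59, 3.77 and 5.30 in the narrow gate.

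Outside the gate first designed, 1 gene was lower in each comparison. In aged against young this became 0 with at least 4 panel genes, with 1 gene added to the panel and outside the narrow gate, where 1 was higher. In aged D+Q against aged 2 were lower with at least 4 panel genes, with thinning, outside the cluster and outside the narrow gate, and 1 was higher with a mean over cells and 2 with at least 2 panel genes.

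In the narrow gate, the 0 genes higher in aged against young became 4 with a mean over cells, 5 with at least 2 genes, 6 with at least 4, 3 with thinning, 9 without cluster 3 and 7 in the podocyte-like cluster. With the gene added to the gate taken out again 1 gene was lower. Over the other 8 gates looked at, which used panels A to D of 5, 6, 6 and 7 genes, the counts higher were 2 (A, at least 2), 7 and 2 (B, at least 2 and 3), 4 and 3 (C) and 5 and 8 (D), and 4 were lower with A at 3 or more and 1 with C at 3 or more. In aged D+Q against aged, the 8 higher genes became 2 with at least 2 genes, 4 with thinning, 1 with panel B at 2 or more, 2 with C at 2 or more, and 2 and 2 with D at 2 and 3 or more. The other 4 gates gave 6 to 9. Without cluster 3, 6 were higher and 1 lower.

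Genes with a log2 ratio below 0 in aged D+Q against aged were, with at least 2 genes, Nphs1 (-0.20), Podxl (-0.16), Synpo (-0.12), Ptpro (-0.15), Magi2 (-0.019) and Cd2ap (-0.11). With panel B at 2 or more they were Nphs1 (-0.17), Podxl (-0.089), Synpo (-0.54), Ptpro (-0.27), Magi2 (-0.014) and Cd2ap (-0.31). With thinning they were Nphs1 (-0.30) and Synpo (-0.20), and with D at 2 or more Nphs1 (-0.042), Synpo (-0.090) and Cd2ap (-0.000729). With D at 3 or more they were Synpo (-0.21) and Cd2ap (-0.43). Cd2ap was the 1 gene below 0 with A at 2 or more (-0.053), with C at 2 or more (-0.075) and without cluster 3 (-0.68). The cause was not tested.

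Narrow-gate cells numbered 136, 60 and 79 with at least 2 genes, 6, 3 and 10 with thinning, 20 young and 9 aged with at least 4, and 24 young and 11 aged without cluster 3. The median log2 ratio of the 9 genes against other cells was 3.59, 3.77 and 5.30 and became 6.16, 6.83 and 6.99 with thinning, 4.30, 5.48 and 6.75 without cluster 3 and 5.04, 5.44 and 6.998 in the cluster. It was 4.74 in aged with at least 4 genes and 3.91 in aged D+Q with at least 2. Without thinning, 8 rather than 5 of the 9 genes had a UMI in at least 50% of young podocyte-like cells. Without a minimum of 30 counts, the list genes in the gate first designed were 5 rather than 3 higher in aged against young, and in aged D+Q against aged 4 rather than 2 higher and 5 rather than 3 lower. TMM scaling, the prior and the 25% mitochondrial limit moved none of these counts by over 1.5 times. Few podocyte-like cells, 16 to 31 per library, limit the precision.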

Other observations

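Beyond the 9 genes, the largest differences inside the podocyte-like cluster were partly in other podocyte genes. Tcf21, a transcription factor of podocytes and stroma, had 25 against 3 counts in aged D+Q against aged, a log2 ratio of 3.32. Opcml followed at 2.32, Lamp2, a lysosomal membrane protein, at 2.20, Wasl, an activator of actin branching, at 2.04, and Fyn, a kinase that phosphorylates nephrin, at 1.92. Of the genes named by the rule, 5 were at 0 counts in aged D+Q, namely Nhs (0 against 29 counts), the mitochondrial acyl-CoA synthetase Acsm1 (0 against 21 counts), Glyat (0 against 13 counts), Rnf24 (0 against 12 counts) and Mob3b (0 against 12 counts). In aged against young, Lingo2 had 89 against 7 counts, a log2 ratio of 4.55, followed by Rbfox1 at 3.07. Slc12a1, the salt transporter of the thick ascending limb, was higher as well, at 1.37. Ehhadh, an enzyme of peroxisomal fatty acid oxidation, was lower at -2.41, from 3 against 36 counts, beside -1.92 in proximal tubule-like cells. In the narrow gate complement C3 had 54 counts in the aged library and 0 in each of the other libraries. C3 is also the leading gene of the unnamed cluster 20, and 1 of the 78 gated cells lay in that cluster. How many cells held the 54 counts is not given here, so they are not read as a level of podocytes. The cluster was formed from these cells' own counts, and the values are given without a test.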
